A study of Homo sapiens with 4 samples.

Results

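The genes described here are 5 growth factor receptors (EGFR, ERBB2, ERBB3, MET and FGFR1) and 5 ligands of the epidermal growth factor (EGF) family (AREG, EREG, HBEGF, TGFA and NRG1). They were chosen by name, with earlier results of these data known, and all 10 were found among the 58735 genes of the deposited tables. The cells were H1299, an established line from a human lung carcinoma of the non-small-cell kind. The methylparaben group was kept for 48 h with 0.5 mM methylparaben, a preservative of the paraben family, and the control group was given ethanol, with 2 RNA-seq libraries per group. The comparison asks which of these genes differ between methylparaben-treated and ethanol-treated cells. No label says that libraries sharing a group were grown as separate cultures. The p-values thus cover the spread between these libraries alone, which may be technical.

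Receptor tyrosine kinases carry growth signals across the cell membrane. EGFR, ERBB2 and ERBB3 act as pairs, in which ERBB2 has no known ligand and ERBB3 has little kinase activity of its own. AREG, EREG, HBEGF and TGFA bind EGFR, some of them, HBEGF included, also bind ERBB4, and NRG1 binds ERBB3 and ERBB4. These ligands are made as membrane proteins and released by proteases. MET is the receptor of hepatocyte growth factor and FGFR1 a receptor of fibroblast growth factors, and activated receptors signal through RAS and MAP kinases and through PI3K and AKT. In lung adenocarcinoma EGFR and MET are known as drivers of growth and as drug targets, whereas H1299 cells carry an activating mutation of NRAS, which lies downstream of these receptors.

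In methylparaben-treated cells EGFR was 3.39-fold lower and MET 1.89-fold lower than in ethanol-treated cells. TGFA, HBEGF, NRG1 and FGFR1 did not pass the test, and ERBB2, ERBB3, AREG and EREG had too few reads to be tested. Betacellulin (BTC), another EGFR ligand, was 9.41-fold lower. The count of TGFA reads per EGFR read was 2.86 and 2.68 in the methylparaben libraries and 0.833 and 0.593 in those with ethanol. This ratio compares libraries and not the levels of the genes, whose counted lengths differ.

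The promoters of the 2 receptor genes that fell and of TGFA, the ligand gene with the most reads, are printed so that the sequence at the start of genes that passed and of one that did not can be compared. Each covers 250 bases before to 50 after an annotated start, as listed by RefSeq on GRCh38.p14. These starts are not those of the transcripts that held most reads. EGFR-201 begins at 55019101 and MET-202 at 116672392, both past the ends of their windows, and TGFA-201 begins at 70554015, inside its window. Sequences are written 5′ to 3′ on the gene's own strand, and capitals mark the GC box GGGCGG in either orientation.
EGFR, chr7:55018767-55019066, plus strand: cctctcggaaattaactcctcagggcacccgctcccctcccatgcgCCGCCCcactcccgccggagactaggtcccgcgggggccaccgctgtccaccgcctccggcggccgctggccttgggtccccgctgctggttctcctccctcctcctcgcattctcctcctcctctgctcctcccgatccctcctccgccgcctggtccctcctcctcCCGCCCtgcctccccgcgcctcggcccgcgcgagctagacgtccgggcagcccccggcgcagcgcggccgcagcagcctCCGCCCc
MET, chr7:116671946-116672245, plus strand: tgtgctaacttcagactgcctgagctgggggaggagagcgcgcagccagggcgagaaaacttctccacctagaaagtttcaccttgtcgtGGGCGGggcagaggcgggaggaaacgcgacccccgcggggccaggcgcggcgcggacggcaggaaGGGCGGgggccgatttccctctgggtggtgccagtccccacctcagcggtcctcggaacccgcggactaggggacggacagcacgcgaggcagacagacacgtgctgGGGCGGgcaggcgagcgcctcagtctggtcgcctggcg
TGFA, chr2:70553777-70554076, minus strand: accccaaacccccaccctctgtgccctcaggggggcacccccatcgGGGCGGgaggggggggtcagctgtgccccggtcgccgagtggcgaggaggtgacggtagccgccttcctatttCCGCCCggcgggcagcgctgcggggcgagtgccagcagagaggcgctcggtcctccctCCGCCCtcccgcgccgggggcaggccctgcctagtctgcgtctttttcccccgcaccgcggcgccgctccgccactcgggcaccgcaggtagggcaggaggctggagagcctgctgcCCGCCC
The EGFR and MET windows each held 3 GC boxes and the TGFA window held 4, and 45% of the 35116 promoters in the same table held at least 1. The bases G and C made up 75.3% of the EGFR, 69.3% of the MET and 75.3% of the TGFA window, against a median of 58.7% over all promoters. Neither TGANTCA, the site of AP-1 factors, nor CATTCC, the site of TEAD factors, was found in these 3 windows on either strand, while 7.71% and 14% of all promoters held them. No other motif was searched, and since only the GC box had hits in these 3 windows, no overlap between motifs could arise. A promoter was found for 7 of the 10 genes, and HBEGF held 5 GC boxes, AREG 1, and ERBB2 and EREG 0, so the box was found in genes that passed the test and in genes that did not. ERBB2 held 1 AP-1 site and EREG 1 TEAD site.

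Totals ran from 2068486 to 3760982 counts per library, which sets the precision of every value. Where a gene had 0 reads, 3 counts were taken as the most that counting error allows, which is 0.798 to 1.45 CPM (counts scaled to a library of 1000000) depending on the library. Limits and intervals on counts cover counting error alone. Of 8055 genes with enough reads, 2976 (36.9%) had an adjusted p under 0.05 in edgeR's quasi-likelihood test, 1491 of them higher (18.5%) and 1485 lower (18.4%), and 1677 passed without ethanol replicate 1. The median log2 fold change of all genes tested was 0.03. Of 13 epithelial and lung markers 10 had no read in any library, among them EPCAM, CDH1 and NKX2-1. KRT8 and KRT18, keratins of simple epithelia, were read at low levels and did not pass the test. All KRT18 reads lay on retained-intron transcripts, so they say little about the level of its coding mRNA. Of 8 blood and immune markers all 8 had no read. Reads appear only on bases covered by a single annotated transcript, as described below. How many such bases the markers have is not given here, so 0 reads does not show that a marker was absent. The fibroblast markers summed to 1.09 and 3.14 CPM in the methylparaben libraries, against 2.55 and 9.52 CPM in the ethanol libraries. The neuroendocrine markers summed to 1.90 and 6.28 CPM with methylparaben and 2.13 and 0 CPM with ethanol. The mesenchymal markers, which include AXL, moved in the same direction as EGFR and MET: they summed to 643 and 574 CPM in the methylparaben libraries, against 1388 and 1869 CPM in the ethanol libraries, with 3 of 3 tested members lower. AXL makes up most of each sum. The others were SPARC, a matrix protein, at 4.56 ± 2.01 CPM in the methylparaben libraries and 36.6 ± 9.56 CPM in the ethanol libraries, and VIM, vimentin, at 34.0 ± 2.26 CPM with methylparaben and 78.0 ± 14.2 CPM with ethanol. Their part in the receptor results was not tested.

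In the deposited counts, reads appear only for transcripts that own bases covered by no other annotated GENCODE transcript, called countable bases here. This limits where reads of the receptors and ligands could be counted. The 10 genes have 146 annotated transcripts, of which 84 have such bases and 25 had a read, and 0 of the other 62 had one. For EGFR 99.5% of the reads were assigned to EGFR-201, a protein-coding transcript whose countable bases are a window of 4291 bases at chromosome 7, 55207338 to 55211628 (GRCh38), wholly 3′ untranslated region (UTR). MET was read almost wholly on MET-202 in 2044 bases of 3′ UTR, at chromosome 7, 116796343 to 116798386, with 99.9% of its reads. All TGFA reads lay on TGFA-201, where 2590 of 2632 countable bases are 3′ UTR, in parts on chromosome 2 from 70447280 to 70450172. NRG1 had 98.5% of its reads on NRG1-202, in 2929 bases of 3′ UTR at chromosome 8, 32765031 to 32767959. HBEGF was read on HBEGF-201 alone, in 1223 bases of which 681 are 3′ UTR. The values of EGFR, MET, TGFA and NRG1 therefore mainly describe transcripts with those 3′ ends, and splice forms that share other exons are not told apart. Those of HBEGF rest also on 239 coding and 303 5′ UTR bases of HBEGF-201.

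**Figure D1:**
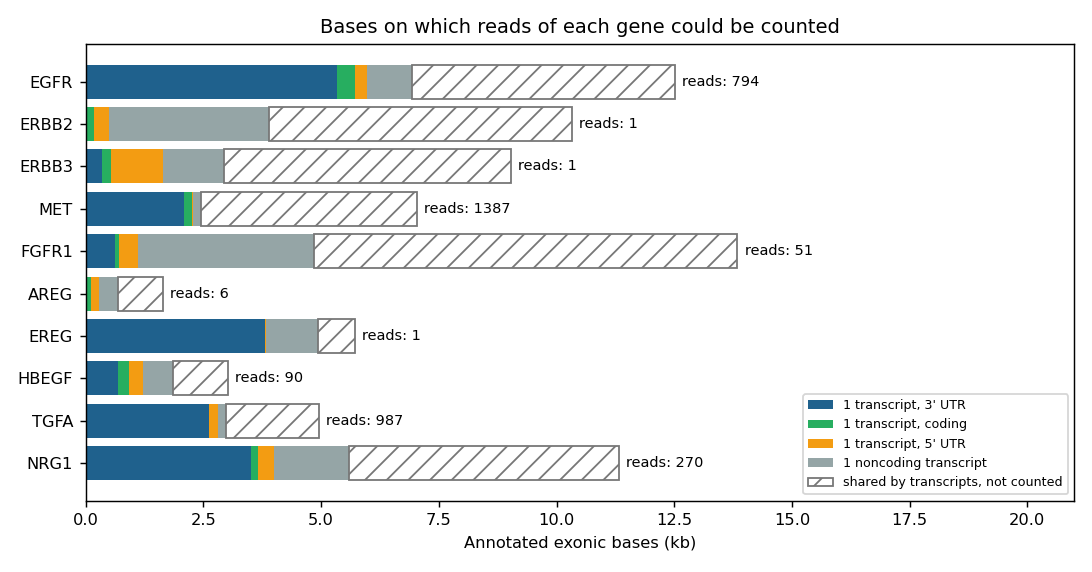
Annotated exonic bases of each gene in kilobases, split into bases that belong to 1 transcript (3′ UTR, coding, 5′ UTR or noncoding transcript) and hatched bases shared by transcripts, with the number of reads over all 4 libraries beside each bar. EGFR, MET, TGFA and NRG1 have long single-transcript 3′ UTRs and between 270 and 1387 reads, whereas ERBB2 and FGFR1 have few countable bases outside noncoding transcripts. EREG also has a long single-transcript 3′ UTR, with 1 read.

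Among the receptors, EGFR (ENSG00000146648.17, chromosome 7, 55019021 to 55211628, plus strand) had 123 and 80 reads in methylparaben replicates 1 and 2, against 294 and 297 reads in ethanol replicates 1 and 2. After TMM scaling (trimmed mean of M values), this was 33.5 and 41.9 CPM in the methylparaben libraries, against 125 and 129 CPM in the ethanol libraries. Both methylparaben libraries lay far below both ethanol libraries, and the gap exceeded the spread within either group. The log2 fold change of methylparaben over ethanol was -1.76 ± 0.23 (SE, 2 libraries per group), with an adjusted p of 0.000478 from edgeR's quasi-likelihood test over all 8055 genes. Of these genes 7.96% had a lower log2 fold change. In a bulk library, fewer cells with a transcript and less of it per cell cannot be told apart. EGFR remained lower with an adjusted p of at most 0.0221 under each of 15 alternative settings. In the authors' deposited table the EGFR-201 transcript has an adjusted p listed as 0.

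MET (ENSG00000105976.14, chromosome 7, 116672390 to 116798386, plus strand) had 375 and 169 reads in the methylparaben libraries, against 378 and 465 reads in the ethanol libraries. Methylparaben replicate 1 is the deepest library, and after scaling the levels were 102 and 88.4 CPM in the methylparaben libraries, against 161 and 201 CPM in the ethanol libraries. The groups did not overlap, though the ethanol libraries differed from each other by more than the methylparaben libraries did. The log2 fold change was -0.92 ± 0.20, with an adjusted p of 0.00623 in edgeR's test, and 19.8% of tested genes had a lower value. Without ethanol replicate 2 the adjusted p was 0.0674 and the log2 fold change -0.74. In the authors' deposited table MET-202 has an adjusted p of 0.000113.

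FGFR1 (chromosome 8, 38400215 to 38468834) could not be followed on its coding transcripts. It had 10 and 16 reads in the methylparaben libraries, against 15 and 10 reads in the ethanol libraries, and 84.3% of them lay on retained-intron transcripts, which keep an intron and are not annotated as coding. Of these transcripts FGFR1-230 held 13 reads, and FGFR1-217 and 1 other held 11 each. A single read fell on a protein-coding transcript, where only 466 bases can be counted. Its levels were 2.72 and 8.37 CPM in the methylparaben libraries, against 6.38 and 4.33 CPM in the ethanol libraries, so the groups overlapped. The log2 fold change was -0.05 (95% interval -1.5 to 1.40, adjusted p = 0.963 in edgeR's test), an interval that leaves a change of more than 2-fold in either direction possible, and its sign was positive under DESeq2.

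ERBB2 (chromosome 17, 39687914 to 39730426) and ERBB3 (chromosome 12, 56076799 to 56103505) were almost without reads. ERBB2 had 0 and 0 reads in the methylparaben libraries and 1 and 0 in those with ethanol, and that read lay on the retained-intron transcript ERBB2-214. Only 425 bases of its protein-coding transcripts can be counted, so the deposited table says little about the level of the receptor mRNA. ERBB3 had 0 and 1 reads in the methylparaben libraries and 0 and 0 in those with ethanol. The read lay on the coding transcript ERBB3-202, and its protein-coding transcripts have 1630 countable bases. Neither gene reached the limit of 3 counts in either group, and a difference was not detectable at this depth.

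**Figure D2:**
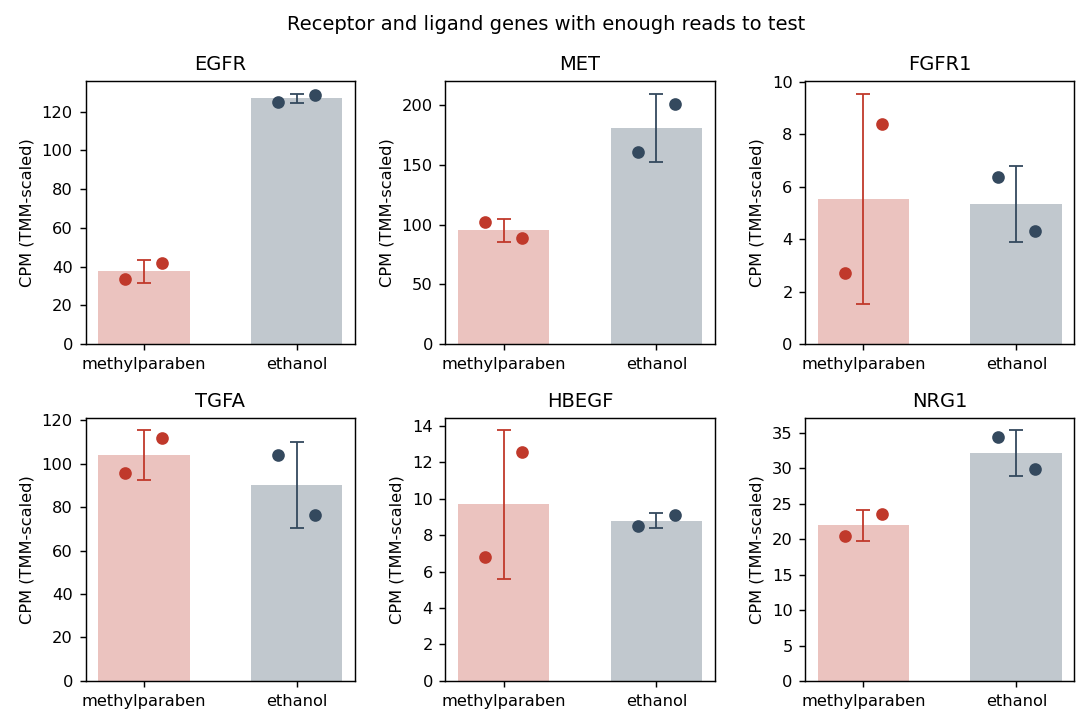
TMM-scaled CPM of the 6 tested genes in the methylparaben and ethanol libraries, with points for libraries, bars for group means and whiskers for the SD of 2 libraries. For EGFR the methylparaben libraries are at 33.5 and 41.9 CPM and the ethanol libraries at 125 and 129 CPM, while the groups overlap for FGFR1, TGFA and HBEGF.

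Of the ligands, TGFA (chromosome 2, 70447280 to 70554193, minus strand) had 352 and 214 reads in the methylparaben libraries, against 245 and 176 reads in the ethanol libraries. Its levels were 95.8 and 112 CPM in the methylparaben libraries, against 104 and 76.2 CPM in the ethanol libraries. Ethanol replicate 1 lay between the methylparaben libraries, so the groups overlapped. The log2 fold change was 0.20 with a 95% interval of -0.30 to 0.70 and an adjusted p of 0.517 in edgeR's test. The upper end of that interval is a change of under 2-fold, and a fall as large as that of EGFR lies outside it.

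NRG1 (chromosome 8, 31639386 to 32767959), the ligand of ERBB3 and ERBB4, had 75 and 45 reads in the methylparaben libraries, against 81 and 69 reads in the ethanol libraries. The levels were 20.4 and 23.6 CPM in the methylparaben libraries, against 34.4 and 29.9 CPM in the ethanol libraries. The groups did not overlap, which holds for 70.5% of all tested genes and for 3 of the 6 tested here. The log2 fold change of -0.56 (95% interval -1.22 to 0.11) did not pass the test, with an adjusted p of 0.170 in edgeR's test.

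HBEGF (chromosome 5, 140332843 to 140346631), whose membrane form is also the receptor of diphtheria toxin, had 25 and 24 reads in the methylparaben libraries, against 20 and 21 reads in the ethanol libraries. Its levels were 6.80 and 12.6 CPM in the methylparaben libraries, against 8.51 and 9.09 CPM in the ethanol libraries, with both ethanol values between the methylparaben values. The 95% interval of the log2 fold change ran from -0.99 to 1.18 (adjusted p = 0.903 in edgeR's test), and its sign changed with the scaling of the libraries.

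AREG (chromosome 4, 74445134 to 74455009) had 0 and 0 reads in the methylparaben libraries, against 5 and 1 reads in the ethanol libraries, split evenly between the coding transcript AREG-201 and the retained-intron transcript AREG-203. Over the group, the ethanol level was 1.32 CPM, and 0 reads in the methylparaben group allow up to 0.515 CPM, on the 3-count limit over the group. Without ethanol replicate 1, which holds 5 of the 6 reads, 1 ethanol read was left, under the limit of 3 counts, so no bound on the fold is given. With no filter on low counts the adjusted p was 0.307 in edgeR's test. EREG, on the same chromosome at 74365143 to 74388751, had 0 and 0 reads in the methylparaben libraries and 0 and 1 in those with ethanol. Its coding transcript EREG-201 has 3829 countable bases, more than TGFA-201, so EREG was under the limit of 3 counts in both groups on a window of ample size.

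Of the 6 genes tested, 2 passed, both lower (33.3%), against 36.9% of all tested genes in either direction, so the share that passed is near that of the whole table. The median log2 fold change of the 6 was -0.30. By role, 2 of 3 tested receptors and 0 of 3 tested ligands passed in edgeR's test. At the level of single transcripts 5 were tested, and EGFR-201 (-1.80 ± 0.23, adjusted p = 0.000446) and MET-202 (-0.94 ± 0.20, adjusted p = 0.00515) passed in edgeR's test, against 39.4% of 9167 transcripts in all (20.3% higher and 19.1% lower). In the authors' deposited table the other 23 transcripts of these genes with a read have adjusted p-values from 0.756 to 0.954.

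**Figure D3:**
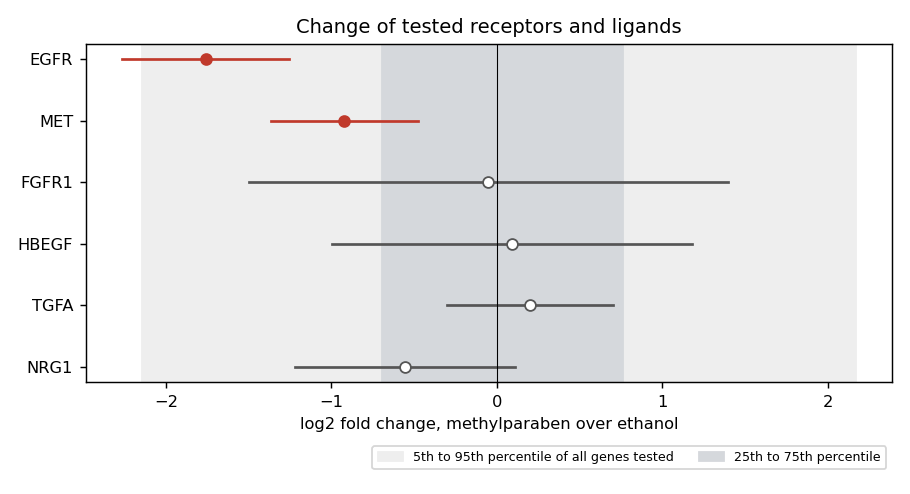
Log2 fold change of methylparaben over ethanol for the 6 tested genes, with 95% intervals, filled points for genes past the threshold, and shaded bands for the central 50% and 90% of all 8055 genes. EGFR at -1.76 and MET at -0.92 lie left of the central 50%, and the intervals of FGFR1, HBEGF, TGFA and NRG1 include 0.

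Levels can be compared between genes only per length, here as CPM per kilobase of countable bases in the main transcript. In the methylparaben libraries MET stood at 46.6 ± 4.70 (SD, n = 2), TGFA at 39.5 ± 4.36, EGFR at 8.68 ± 1.52, HBEGF at 7.92 ± 3.33 and NRG1 at 7.37 ± 0.698. In the ethanol libraries MET stood at 88.3 ± 13.7, TGFA at 34.3 ± 7.53, EGFR at 29.5 ± 0.650, NRG1 at 10.8 ± 0.901 and HBEGF at 7.19 ± 0.337. EGFR, HBEGF and NRG1 overlapped in the methylparaben libraries, while in the ethanol libraries EGFR overlapped with TGFA and lay above NRG1 and HBEGF. For percentiles another measure was used, all reads of a gene per kilobase of all its countable bases, 6922 bases for EGFR. On this measure EGFR stood at 5.44 in the methylparaben libraries and 18.3 in the ethanol libraries. Among 16328 protein-coding genes with at least 500 countable bases, these were the 77.6th percentile with methylparaben and the 88.9th with ethanol. The deposited FPKM values, which divide by the whole transcript length, give EGFR-201 3.21 and 4.0 FPKM in the methylparaben libraries, against 12.3 and 13.3 FPKM in the ethanol libraries. EGFR-201 is 9821 bases long and only 4291 can be counted, so FPKM understates it beside genes with a larger countable share.

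Ratios of counts within a library need no scaling between libraries. The TGFA to EGFR ratio was 2.86 (95% exact binomial interval 2.32 to 3.54) and 2.68 (2.06 to 3.50) in methylparaben replicates 1 and 2, against 0.833 (0.700 to 0.991) and 0.593 (0.489 to 0.716) in ethanol replicates 1 and 2. TGFA reads thus outnumbered EGFR reads in both methylparaben libraries and were fewer in both ethanol libraries, and the ratio was 3.94-fold higher with methylparaben as a geometric mean. Whether this ratio lies above or below 1 depends also on the countable bases, 2632 for TGFA-201 and 4291 for EGFR-201. In the ethanol libraries, CPM per kilobase of these bases was 34.3 ± 7.53 for TGFA and 29.5 ± 0.650 for EGFR, and the libraries overlapped. Fewer TGFA reads there thus do not show a lower level of TGFA than of EGFR. The NRG1 to EGFR ratio was 0.610 and 0.563 in the methylparaben libraries and 0.276 and 0.232 in those with ethanol. The HBEGF to EGFR ratio was 0.203 and 0.300 in the methylparaben libraries and 0.0680 and 0.0707 in those with ethanol. The MET to EGFR ratio was 3.05 and 2.11 in the methylparaben libraries and 1.29 and 1.57 in those with ethanol, and the intervals of methylparaben replicate 2 (1.61 to 2.79) and ethanol replicate 2 (1.35 to 1.82) overlapped. The point values of all 4 ratios were separate between the groups. Levels of single genes were separate for 70.5% of all tested genes, and the share among ratios of other gene pairs was not computed. All 4 share the EGFR count as denominator, so the lower EGFR count enters each of them and they are not separate results. The TGFA to MET ratio was separate too, at 0.939 and 1.27 in the methylparaben libraries and 0.648 and 0.378 in those with ethanol. The NRG1 to MET ratio overlapped, at 0.200 and 0.266 in the methylparaben libraries and 0.214 and 0.148 in those with ethanol. With 2 libraries per group an exact permutation test cannot give a two-sided p below 0.333, and these ratios carry no test.

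**Figure D4:**
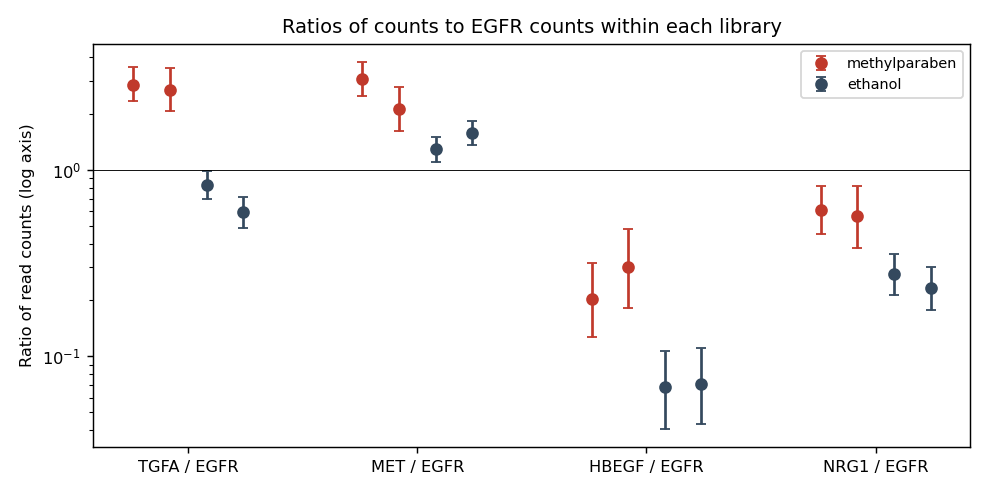
Read counts of TGFA, MET, HBEGF and NRG1 divided by the EGFR count of the same library, on a log axis, with 95% exact binomial intervals that cover counting error only. Each ratio is higher in both methylparaben libraries than in both ethanol libraries, and all share the lower EGFR count as denominator. For TGFA the values are 2.86 and 2.68 with methylparaben and 0.833 and 0.593 with ethanol.

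The profile across the 4 libraries was compared with that of 7317 other genes at a mean of 5 CPM or more, by the Euclidean distance of centred log2 CPM. Nearest to EGFR were ABCD2, a peroxisomal transporter gene, at a distance of 0.041, and CYR61, a matricellular protein gene, at 0.081. Nearest to MET were HNRNPR, an RNA-binding protein gene, at 0.044, and DOP1A at 0.058. The distance rests on 4 points, 2 per group, and is a description.

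The wider pathway was described with 139 further genes in 7 lists. Of the 57 that could be tested 22 passed, 5 higher and 17 lower (38.6%, against 36.9% of all genes), with a median log2 fold change of -0.21. Over all genes tested 18.5% were higher and 18.4% lower, and the counts of each list below are to be read against these shares. Single lists hold 2 to 13 tested genes, and their counts are a description. The lists were chosen with earlier results of these data known, so their shares and direction are no independent evidence. Without ethanol replicate 1 the count was 14 of 63, and with limma on log2 FPKM it was 13 of 57. Of the 22 genes, 12 passed whichever library was left out.

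Among other growth factor receptors, 1 of 5 tested genes of 25 listed rose and 2 fell. AXL, a receptor of GAS6, had 599 and 534 CPM in the methylparaben libraries, against 1253 and 1767 CPM in the ethanol libraries, and fell 2.66-fold (adjusted p = 0.000733 in edgeR's test). DDR2, a collagen receptor, fell 2.25-fold (adjusted p = 0.00656), but not with limma on log2 FPKM, where the adjusted p was up to 0.0906. MERTK, a receptor of the same family as AXL, had 51 and 26 reads in the methylparaben libraries and 4 and 4 in those with ethanol. It rose 7.82-fold (adjusted p = 0.00289), and retained-intron transcripts held 34.1% of its reads. The median log2 fold change of the list was -0.56, and from -1.12 to -0.23 over the alternatives. IGF2R and EPHA2 did not pass.

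Of 24 other ligands 2 could be tested and both fell in edgeR's test. BTC, which binds EGFR and ERBB4, had 8 and 10 reads in the methylparaben libraries, against 82 and 69 reads in the ethanol libraries, which is 2.18 and 5.23 CPM with methylparaben and 34.9 and 29.9 CPM with ethanol. Its log2 fold change was -3.23 ± 0.46 (adjusted p = 0.000795), a larger fold than that of EGFR, and it passed in each of the 4 leave-outs. FGF5, a fibroblast growth factor, had 7 and 5 reads in the methylparaben libraries, against 13 and 26 reads in the ethanol libraries, with an adjusted p of 0.0371 that rose above 0.05 whichever library was left out, up to 0.480 without ethanol replicate 2, and up to 0.131 under DESeq2, limma and the replicate block. The list on shedding of ligands and receptors has 12 genes, mostly proteases, with TIMP3, an inhibitor of such proteases, among them, and 1 of 2 tested fell. This was ADAM10, the sheddase of BTC and EGF, at 186 ± 19.5 CPM in the methylparaben libraries, against 264 ± 15.4 CPM in the ethanol libraries (adjusted p = 0.0431). Its adjusted p was 0.196 without methylparaben replicate 2, 0.124 without ethanol replicate 1 and 0.272 without ethanol replicate 2. It also missed the threshold in 7 further settings, among them DESeq2 and the fit without retained-intron transcripts, with adjusted p-values up to 0.191.

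In the list of adaptors and the RAS-MAPK cascade, 3 of 13 tested genes of 21 fell and 0 rose, with a median log2 fold change of -0.32, and from -0.50 to -0.25 over the alternatives. NRAS had 660 and 529 CPM in the methylparaben libraries, against 1105 and 1143 CPM in the ethanol libraries, and fell 1.89-fold (adjusted p = 0.00327 in edgeR's test). GAB1, a docking protein that binds MET and EGFR, fell 1.99-fold, at an adjusted p of 0.0114, and of 0.0505 when ethanol replicate 1 was left out and up to 0.0688 with limma on log2 FPKM. The 10 that did not pass include PTPN11, the phosphatase SHP2, at 647 ± 48.0 CPM with methylparaben and 652 ± 21.6 CPM with ethanol.

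In the PI3K-AKT, STAT and PLC list, 1 of 11 tested genes of 17 rose and 2 fell. PIK3R1, the regulatory subunit p85-alpha of PI3K, had 25.03 and 30.4 CPM in the methylparaben libraries, against 97.4 and 115 CPM in the ethanol libraries, and fell 3.86-fold (adjusted p = 0.000437 in edgeR's test). MTOR, the kinase of both mTOR complexes, had 42.2 and 129 CPM in the methylparaben libraries, against 34.0 and 22.5 CPM in the ethanol libraries. It passed as higher (adjusted p = 0.0244), with an adjusted p of 0.163 without methylparaben replicate 2. The call was also lost under DESeq2 and limma, with adjusted p-values up to 0.276. The median log2 fold change of the list was 0.28, but -0.13 without retained-intron transcripts and -0.16 with no filter on low counts, so the list has no direction.

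Of 22 genes that limit or route receptors 12 were tested, of which 3 fell and 2 rose. The median log2 fold change was 0.0043, and from -0.14 to 0.19 over the alternatives. At least 3 fell under every alternative, whereas 0 rose under DESeq2, the replicate block, limma on log2 FPKM, without retained-intron transcripts, without methylparaben replicate 1 and without ethanol replicate 1. UBASH3B, a phosphatase that counteracts CBL-driven receptor degradation, had 18.0 and 18.3 CPM in the methylparaben libraries, against 149 and 107 CPM in the ethanol libraries, and fell 7.04-fold (adjusted p = 0.000115 in edgeR's test). SORL1, a sorting receptor of the endosome, had 12.5 and 16.7 CPM in the methylparaben libraries, against 76.5 and 73.1 CPM in the ethanol libraries, and fell 5.19-fold (adjusted p = 0.000322). ERRFI1, known as MIG6, a feedback inhibitor that binds the EGFR kinase, had 321 and 315 CPM in the methylparaben libraries, against 608 and 666 CPM in the ethanol libraries, and fell 2.01-fold (adjusted p = 0.00144). These 3 genes passed in all 4 leave-outs. CBLB, an E3 ubiquitin ligase for activated receptors, rose 3.01-fold (adjusted p = 0.0383). Retained-intron transcripts held 95.5% of its reads, and its adjusted p-values were 0.202 without methylparaben replicate 1 and 0.218 without ethanol replicate 1. Under DESeq2, the replicate block and limma on log2 FPKM it did not pass either, with adjusted p-values up to 0.0984. The other gene that rose was PTPN2, a tyrosine phosphatase named after its values were seen, at an adjusted p of 0.0450. Retained-intron transcripts held 78.0% of PTPN2 reads, and the gene passed in 1 of 4 leave-outs. CBL itself did not pass, at 142 ± 0.240 CPM in the methylparaben libraries and 124 ± 26.97 CPM in the ethanol libraries.

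Of genes that are commonly read as output of ERK signalling, 1 of 12 tested of 18 rose and 4 fell. Over all genes tested these shares were 18.5% and 18.4%. The median log2 fold change of the list was -0.62. The median was -0.19 without retained-intron transcripts and -0.40 without ethanol replicate 1, and the counts were 0 higher and 3 lower without that library. CCND1, cyclin D1, had 123 and 120 CPM in the methylparaben libraries, against 703 and 673 CPM in the ethanol libraries (adjusted p = 2.80e-05 in edgeR's test). EGR1, an immediate early transcription factor, had 47.1 and 70.1 CPM in the methylparaben libraries, against 200.3 and 241 CPM in the ethanol libraries (adjusted p = 0.000359). SPRED1, an inhibitor of RAS signalling, fell 1.96-fold (adjusted p = 0.00166). DUSP5, a nuclear ERK phosphatase, rose 1.79-fold, at an adjusted p of 0.00583, and of 0.0840 when ethanol replicate 1 was left out. DUSP6, a cytoplasmic ERK phosphatase, also fell, at 25.1 ± 5.22 CPM in the methylparaben libraries and 52.3 ± 0.563 CPM in the ethanol libraries, at an adjusted p of 0.0156, and of 0.0627 when ethanol replicate 1 was left out and up to 0.0634 with limma on log2 FPKM, and it was named after its values were seen. ETV5 and SPRY2 did not pass.

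**Figure D5:**
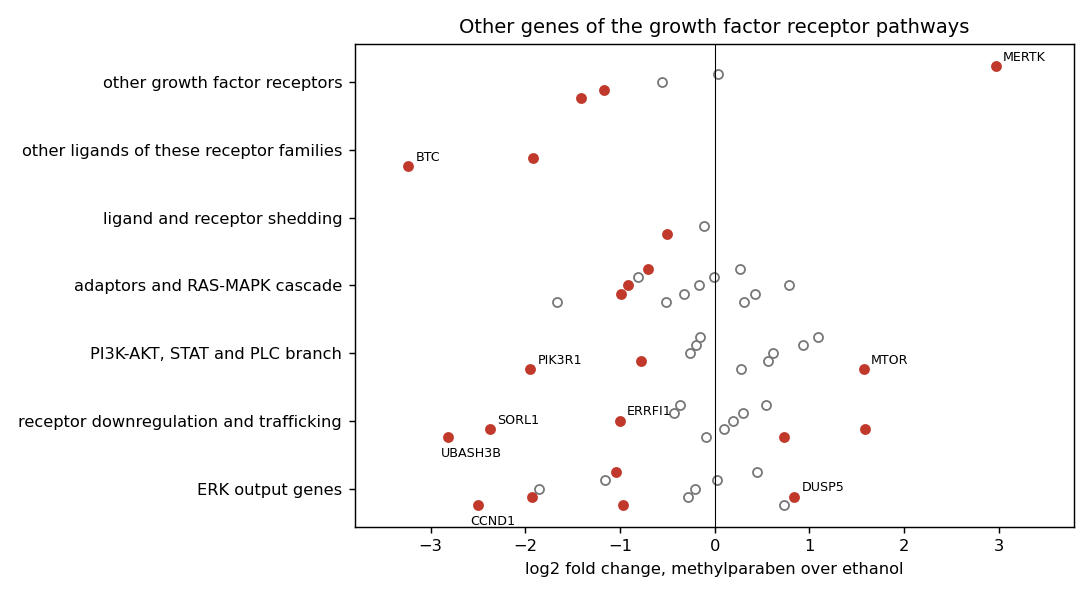
Log2 fold change of methylparaben over ethanol for the 57 tested genes of 7 pathway lists, each point a gene, filled where it passed the threshold. BTC at -3.23 and UBASH3B at -2.82 lie farthest to the left and MERTK at 2.97 farthest to the right.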

How the data were processed

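Poly(A) RNA of 4 H1299 libraries was sequenced after a TruSeq preparation, per the labels' protocols. The authors deposited raw read counts for 206601 transcripts, all at GENCODE 29 coordinates on GRCh38. Per the file headers, the authors' normalized table gives FPKM, log2 of FPKM plus 1, and for each transcript a p-value with its adjusted form. The submitters' processing notes list DESeq2, limma and edgeR. Aligner, counter, strand and the treatment of multiply matching reads: not given in the sources used here. None of the 70749 transcripts without a base of their own had a read.

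Counts were summed per Ensembl gene, filtered with filterByExpr (minimum count 10, minimum total 15) and TMM-scaled. Methylparaben was set against ethanol by edgeR's quasi-likelihood test (version 4.0.16, R 4.3.3), fitted on all 4 libraries. P-values are two-sided and Benjamini-Hochberg adjusted over 8055 genes, with 0.05 as threshold. Standard errors were derived from the fold change and its F statistic. Transcripts were tested likewise, and the procedure was tested on simulated data. Binomial intervals are Clopper-Pearson at 95%. Alternatives were other scalings and filters, DESeq2 1.42.0, limma 3.58.1 (voom, and log2 FPKM with pseudocounts of 1 and 0.1), a replicate block, no retained-intron transcripts, and each library left out. The genes and lists were chosen with earlier results of these data known. Named are all 10 genes, up to 4 passing genes per pathway list by smallest p, the 2 nearest profiles of each passing gene, and transcripts with at least 10% of a gene's reads (1 of FGFR1 by its count only). Other names are examples picked afterwards. Some genes that the rule names are not reported here.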

Additional observations from a re-analysis of the deposited data

How the results depend on the processing

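EGFR stayed lower and past the threshold under all 15 alternatives, with log2 fold changes from -1.89 to -1.54, and MET did under 14 of 15. Leaving out 1 library gave EGFR from -1.89 to -1.60, MET from -1.10 to -0.74, FGFR1 from -0.93 to 0.63, HBEGF from -0.34 to 0.50, TGFA from 0.0064 to 0.42 and NRG1 from -0.64 to -0.46. TGFA and NRG1 passed under none of their 15 alternatives, which were edgeR scalings and filters, DESeq2, limma, the replicate block, no retained introns and the leave-outs. FGFR1 was at 0.0097 under DESeq2, and HBEGF at -0.021 with library sizes only and at -0.055 with limma voom, so neither has a direction. Library sizes only moved the median of all genes by -0.11. FGFR1 could not be tested without retained-intron transcripts, since too few reads were left.

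Leaving out 1 library gave 1 to 2 of these genes and 1 to 2 of their transcripts past the threshold, 1677 to 3095 genes in all (1677 without ethanol replicate 1) and 14 to 24 pathway genes. Limma on log2(FPKM + 0.1) called 1899 genes, and with either pseudocount 13 pathway genes. The cause of these lower counts was not tested. The labels do not say that replicate numbers pair the libraries, and deviations of same-numbered libraries correlated at -0.15 across genes. With the replicate block 2488 genes passed, 2 of the genes described and 18 of the pathway genes. Crossing the pairs, which was chosen after seeing the data along with upper-quartile scaling and the ratios within libraries, gave 3292 genes in all and 2 of the genes described. ERBB2, ERBB3, AREG, EREG, FGFR1 and HBEGF had the fewest reads, 1 to 90 each over the 4 libraries, and how far depth or few countable bases limit them was not tested.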

Other observations

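Few reads fell on shorter EGFR transcripts. EGFR-202, a shorter coding transcript, had 3 and 0 reads in the methylparaben libraries and 0 and 0 in those with ethanol, on 113 countable bases, which are too few to set its level against that of EGFR-201. EGFR-203, another short coding transcript, had 0 and 0 reads in the methylparaben libraries and 1 and 0 in those with ethanol, on 739 countable bases. Of NRG1, 4 of 22 annotated transcripts had a read, and NRG1-216, the second coding transcript among them, had 0 and 0 reads in the methylparaben libraries and 2 and 0 in those with ethanol. These counts are at or under the limit of 3 per group and carry no test.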
